A study of Mus musculus with 8 samples.

Results

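The 10 genes described here encode proteins of the BCL2 family, which sets whether a cell survives or dies by the mitochondrial route of apoptosis. They were chosen by name, as 10 of 21627 protein-coding genes, and each was taken as the mm10 gene body with 20 kb added on each side, here called its window. The measurement was H3K27ac, acetylation of lysine 27 on histone H3, a mark found at active promoters and enhancers, mapped by chromatin immunoprecipitation and sequencing (ChIP-seq). The cells were CD8+ T cells from lymph node and spleen of C57BL/6 mice, stimulated with antibodies against CD3 and CD28. All were kept for 48 h either with EnPGC-1, a compound that the labels place among PIPs, or with its vehicle DMSO. Each treatment had 2 H3K27ac samples and 1 input, and the DMSO arm also had 2 IgG controls, 8 samples in all. The sources used here state neither the age of the mice nor the dose, nor whether animals were pooled.

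The values used here were 2 deposited peak lists, 1 per treatment. Neither gives values by replicate, so every difference below is a description without a test. An interval is a stretch that the authors' peak caller listed as enriched, and its score is the caller's own value. Depth per sample is unknown here, and the number and width of intervals depend on depth as well as on acetylation. In a bulk preparation, more cells carrying the mark and more mark per cell cannot be told apart. There were 81522 distinct DMSO intervals, 41.3 Mb long in sum, and 253423 EnPGC-1 intervals with 165 Mb, a ratio of 4.00 in covered bases. Every difference in the member windows stands beside that excess. The labelled cell type was checked with marker genes. Of 8 CD8 T cell markers with a listed start, 6 had an EnPGC-1 interval within 1 kb of it and 3 a DMSO interval. For B cell markers this was 3 and 1 of 3, and over all protein-coding genes with a listed start 67.3% and 33.5%. The median covered share of the 6 B cell marker windows was 2.51% with DMSO and 19.4% with EnPGC-1, against 1.92% and 10.4% for the 10 CD8 T cell markers. For 6 myeloid markers it was 2.88% and 8.85%, for 5 erythroid markers 1.82% and 12.9%, and for 4 CD4 T cell markers 3.57% and 19.5%. Over all protein-coding genes it was 1.99% and 8.37%. The CD8 T cell markers thus lay close to all genes, both in coverage and near starts. Single CD8 T cell markers ranged widely. Of the 10, Cd5 had the most intervals, 14 with DMSO and 23 with EnPGC-1. Ptprc, the gene of the leukocyte antigen CD45, had the fewest, 0 and 1. Near starts, myeloid markers had 0 DMSO and 1 EnPGC-1 of 3, erythroid markers 0 and 2 of 4, and CD4 T cell markers 1 and 2 of 2. Median coverage of B cell and CD4 T cell markers was thus above that of CD8 T cell markers in both lists. Myeloid markers were above CD8 T cell markers with DMSO only, and erythroid markers with EnPGC-1 only. The 3 myeloid and 4 erythroid markers with a listed start had no DMSO interval near it. How this bears on the family was not tested.

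Proteins of this family meet at the outer mitochondrial membrane. BCL2, BCL-XL (encoded by Bcl2l1) and MCL1 hold cells alive by binding their relatives. BAX and BAK, the effectors, form pores through which cytochrome c leaves and starts the caspase cascade. The BH3-only proteins, here BIM (Bcl2l11), PUMA (Bbc3), NOXA (Pmaip1), BID and BAD, sense stress and either block the survival proteins or switch on the effectors. In T cells, MCL1 and BCL2 are known to keep cells alive under cytokine signals, activated T cells are known to express BCL-XL after CD28 costimulation, and BIM is known to drive the death of T cells when an immune response ends.

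All 10 windows had more bases covered with EnPGC-1 than with DMSO, as did 93% of all protein-coding genes, while 1.51% had more with DMSO. Together the windows spanned 758.839 kb. Of these, the DMSO list covered 33.7 kb with 69 intervals and the EnPGC-1 list 132 kb with 178 intervals, which is 4.44% and 17.4%. The ratio of covered bases over all members was 3.93, close to the 4.00 of the whole lists. In 9 of 10 windows the covered bases were at least 2 times higher in the EnPGC-1 list, a share met by 90.2% of genes with DMSO bases. The median covered share over the 10 members was 3.64% with DMSO and 21.3% with EnPGC-1, against 1.99% and 8.37% over all protein-coding genes. The median ratio was 4.21 for the members and 3.71 for all genes with DMSO bases. When the EnPGC-1 list was reduced by score to the same number of intervals as the DMSO list (equal numbers below), the ratio over all members was 1.75 and that of the whole lists 1.65.

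**Figure D1:**
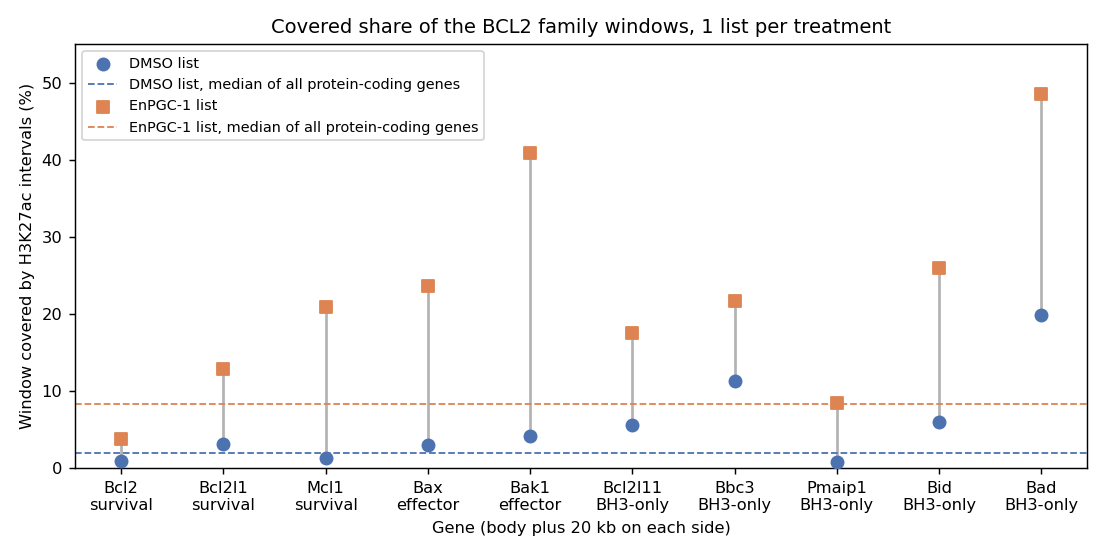
Covered share of each window in percent (vertical axis) for the 10 genes (horizontal axis), with circles for the DMSO list, squares for the EnPGC-1 list and dashed lines for the medians of all protein-coding genes. Every square lies above its circle, from 3.76% at Bcl2 to 48.5% at Bad for EnPGC-1 and from 0.801% at Pmaip1 to 19.8% at Bad for DMSO.

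Among the survival genes, Bcl2 was thinly covered in both lists, whereas Mcl1 went from sparse to well covered. Bcl2 (gene ID 12043) lies on chromosome 1 from 106538176 to 106714290, on the minus strand. Its 216-kb window held 5 DMSO intervals covering 0.918% and 18 EnPGC-1 intervals covering 3.76%, a ratio of 4.10. Both shares were low for a gene, above those of 34.1% and 31.7% of protein-coding genes. All 5 DMSO intervals lay in the gene body, 2 of them 152 and 1333 bp from the transcription start, 1 at 26027 bp and 2 near the far end, at 171878 and 172972 bp. Of the 18 EnPGC-1 intervals, 12 lay in the gene body, and the highest-scoring was at 106662829 to 106663147, 51143 bp from the start, with a score of 6.94 and no overlapping DMSO interval.

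Bcl2l1 (gene ID 12048, chromosome 2 from 152758732 to 152833803, minus strand) held 9 DMSO intervals covering 3.15% of its window and 25 EnPGC-1 intervals covering 12.8%, a ratio of 4.07. Its strongest DMSO interval, from 152828662 to 152829005 with a score of 4.52, ranked 2119 in that list and was not overlapped by any EnPGC-1 interval. The strongest EnPGC-1 interval, from 152788908 to 152790022, lay in the gene body and overlapped no DMSO interval. Mcl1 (gene ID 17210, chromosome 3 from 95656944 to 95663179, plus strand) held 2 DMSO intervals covering 1.40% and 11 EnPGC-1 intervals covering 20.9%. Its ratio of 15.0 was the highest of the 10 members. Most of the added bases lay beyond the gene: 3 EnPGC-1 intervals of 1923, 2739 and 2023 bp overlapped the neighbouring gene Adamtsl4, the last of them mostly past the end of the window. The gene body alone had 311 covered bases with DMSO and 1365 with EnPGC-1, a ratio of 4.39, and with bases inside other genes left out the ratio for the window was 7.59.

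Both effector genes, like the BH3-only gene Pmaip1, had 0 DMSO bases in the gene body and 2 or more EnPGC-1 intervals there. The share of all genes with this pattern was not counted, so it cannot be called particular to these genes. Their bodies are short, 5.209 kb at Bax, 8.816 kb at Bak1 and 6.955 kb at Pmaip1. Bax (gene ID 12028, chromosome 7 from 45461695 to 45466903, minus strand) had 3 DMSO intervals in its window, all in the flanks, covering 3.01%. It had 15 EnPGC-1 intervals covering 23.7%, of which 2 touched the gene body and covered 27.4% of it. Bak1 (gene ID 12018, chromosome 17 from 27019812 to 27028627, minus strand) had 4 DMSO intervals, all upstream, covering 4.13% of its window. Its 22 EnPGC-1 intervals covered 40.9%, above 94.7% of protein-coding genes, and 6 of them covered 43.3% of the gene body. All 6 also overlap Ggnbp1, a gene that spans Bak1, so they cannot be assigned to either. The ratios were 7.87 for Bax and 9.91 for Bak1.

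The flanks of these short genes hold other genes, which share the count. Of the Bax window, 68.2% lies in Gys1, Ftl1, Dhdh or Tulp2. The highest-scoring EnPGC-1 interval of all 10 windows, from 45478611 to 45479703 with a score of 11.5 and rank 408, overlapped Dhdh and not Bax. With bases inside other genes left out, Bax had 883 DMSO and 3830 EnPGC-1 bases, a ratio of 4.34. The Bak1 window had 1557 and 12131, a ratio of 7.79. Those bases all lie in its flanks, because the Bak1 body lies inside Ggnbp1 and is left out too. At Bak1, neighbouring EnPGC-1 intervals upstream of the start were 2879 and 2874 bp long, and the second of these, from 27041595 to 27044468, had the highest score of that window, 7.68.

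The BH3-only genes ranged widely. Bad, which lies among many genes, was the most covered member in both lists, and Pmaip1 the least covered in the DMSO list. Bcl2l11 (gene ID 12125, chromosome 2 from 128126038 to 128162547, plus strand) held 8 DMSO intervals covering 5.56% of its window and 20 EnPGC-1 intervals covering 17.5%. Only 2 of its 8 DMSO intervals overlapped an EnPGC-1 interval, so the lists placed most of their intervals at different positions in this gene. Its strongest DMSO interval, from 128135630 to 128135926 with a score of 4.00, and its strongest EnPGC-1 interval, from 128132703 to 128133070, were both in the gene body and unshared.

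Bbc3 (gene ID 170770, chromosome 7 from 16308398 to 16318334, plus strand) had 11 DMSO intervals covering 11.3% and 14 EnPGC-1 intervals covering 21.7%. Its ratio of 1.91 was the lowest of the 10, turned to 0.704 with equal numbers of intervals, and was 2.96 with bases in other genes left out. The DMSO interval with the highest score here, 6.50 at rank 315, lay from 16326122 to 16326962 inside the neighbour Sae1. Bid (gene ID 12122, chromosome 6 from 120893119 to 120917062, minus strand) had 8 DMSO intervals covering 6.02% and 18 EnPGC-1 intervals covering 26.0%. The widest interval of all windows, 3942 bp with 6 summits in the EnPGC-1 list, lay upstream of Bid from 120932009 to 120935950 and overlapped Mical3. On its other side the Bid window reaches into Bcl2l13, itself a family member, where DMSO and EnPGC-1 intervals were both listed.

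Bad (gene ID 12015, chromosome 19 from 6941861 to 6951905, plus strand) had 18 DMSO intervals covering 19.8% and 27 EnPGC-1 intervals covering 48.5%. These shares exceeded those of 99.6% and 98.1% of protein-coding genes. Of its window, 69.9% lies in Esrra, Catsperz, Kcnk4, Gpr137 or Plcb3, and the top DMSO interval, with a score of 6.58, lay in Plcb3. Esrra, the gene of the nuclear receptor ERR alpha, was reached by 1 interval of the window, an EnPGC-1 interval from 6921907 to 6922453. This interval also overlapped Catsperz and a DMSO interval from 6922091 to 6922658. Only an end of Esrra lies in the window. Within the Bad gene itself, 20.4% was covered with DMSO and 32.4% with EnPGC-1, a ratio of 1.59. Pmaip1 (gene ID 58801, chromosome 18 from 66458604 to 66465558) had 1 DMSO interval, outside the gene, covering 0.801% of its window. It had 8 EnPGC-1 intervals covering 8.46%, of which 2 lay in the gene and covered 16.1% of it. No other protein-coding gene lies in its window.

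**Figure D2:**
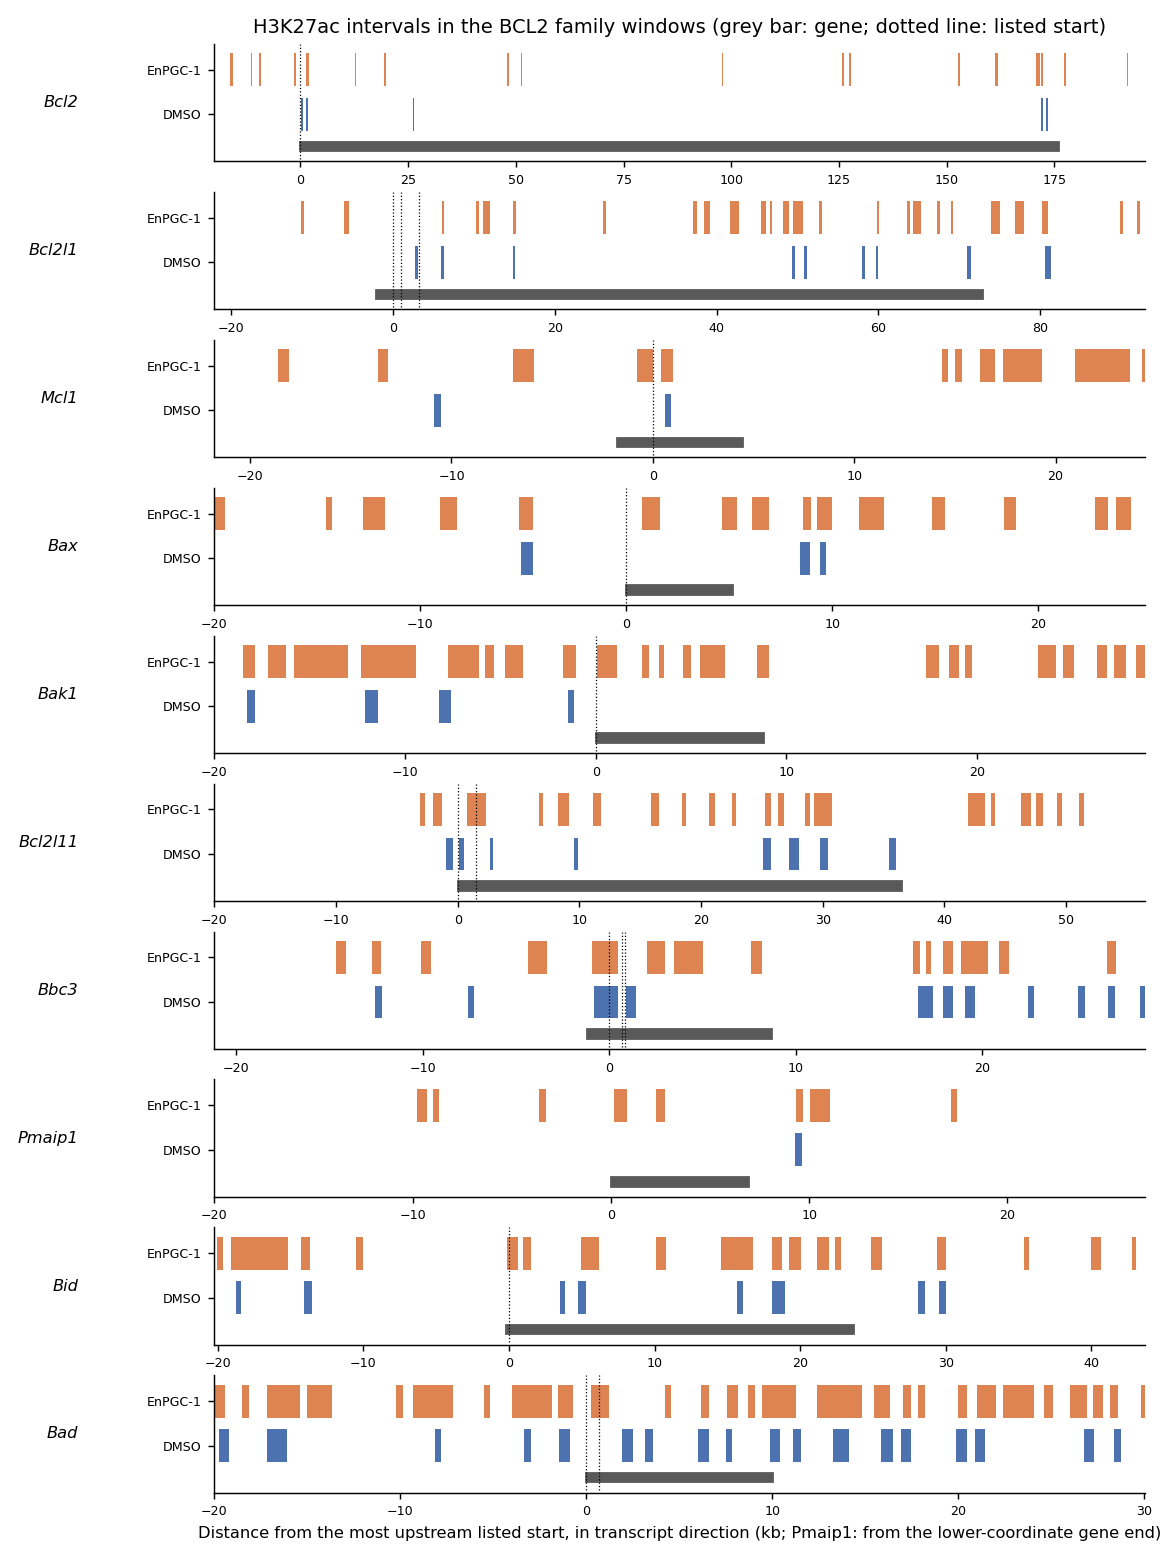
Map of every listed interval in the 10 windows, with distance from the most upstream listed start in kb along each horizontal axis (for Pmaip1, from the lower-coordinate gene end), EnPGC-1 intervals above, DMSO intervals below and the gene as a grey bar. The bodies of Bax, Bak1 and Pmaip1 hold 0 DMSO intervals, and 2, 6 and 2 EnPGC-1 intervals. The share of all genes with this pattern was not counted.

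By role, the effectors had a median ratio of 8.89 (2 genes), the survival genes 4.10 (3 genes) and the BH3-only genes 3.15 (5 genes). In the same order, median covered shares were 32.3%, 12.8% and 21.7% with EnPGC-1 and 3.57%, 1.40% and 6.02% with DMSO. The ranges of the ratios overlapped: survival genes ran from 4.07 to 15.0, effectors from 7.87 to 9.91 and BH3-only genes from 1.91 to 10.6. The gap between effectors and survival genes depended on the window. With 50 kb on each side the median ratios were 4.59 and 4.46, and 3.02 for BH3-only genes. Bax had a ratio of 3.15 with 5 kb and 3.18 with 50 kb on each side, and Bak1 19.8 and 5.99. With equal numbers of intervals the ratios were 6.02 at Bak1, 5.02 at Mcl1 and 3.76 at Bax. The Bak1 value includes its 2879 bp interval, whose score of 4.21 is tied at the limit of this setting. Intervals with the same score at Bcl2 and Bcl2l11 were left out. The order of Bak1 and Mcl1 thus depends on how ties were cut. At the other genes but Bbc3 they were 2.33 at Bid, 2.01 at Pmaip1, 1.48 at Bcl2l11, 1.34 at Bcl2, 1.17 at Bad and 1.13 at Bcl2l1.

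**Figure D3:**
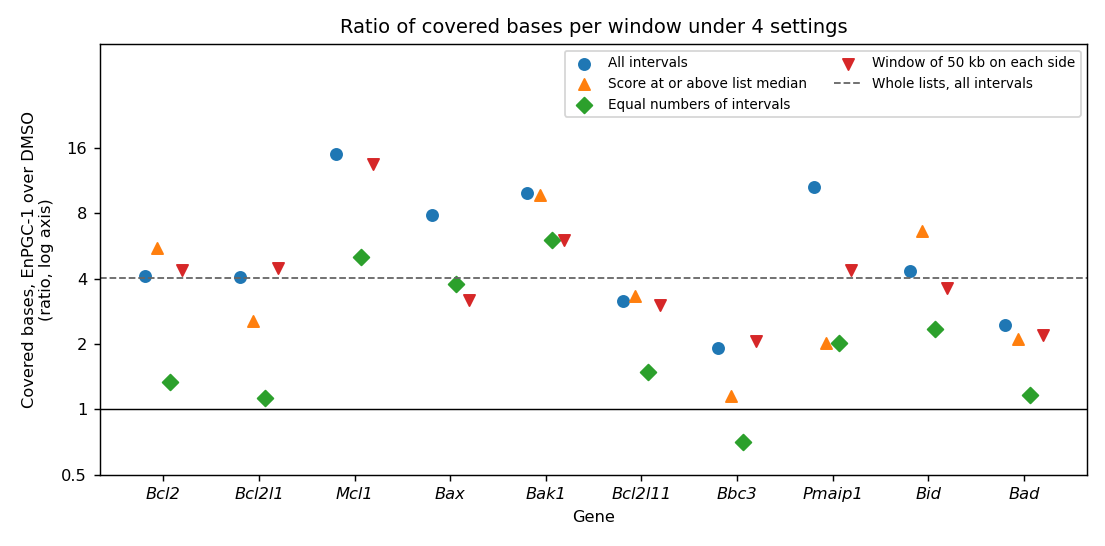
Ratio of covered bases, EnPGC-1 over DMSO, on a log axis for each gene (horizontal axis) with all intervals (circles), intervals at or above the median score (triangles), equal numbers of intervals (diamonds) and 50 kb windows (inverted triangles). The dashed line is the 4.00 of the whole lists. Bbc3 drops to 0.704 with equal numbers, and Mcl1 and Bax have no triangle because no DMSO interval of theirs reached the median score.

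Transcription starts were listed for 9 of the 10 members, and the lists differed there by gene. In the DMSO list, 6 of 9 members had an interval within 1 kb of a start, against 33.5% of the 17273 protein-coding genes with a listed start. In the EnPGC-1 list, 7 of 9 had one, against 67.3% of genes. At this limit 0 members were marked in neither list, a state found at 29.6% of genes, but Mcl1 and Bad were in it when only intervals at or above the median score were used. Both lists marked Mcl1, Bcl2l11, Bbc3 and Bad, a state found at 30.5% of genes. At Bcl2l11 the intervals near the starts did not overlap between the lists. The EnPGC-1 list alone marked Bax, Bak1 and Bid, a state found at 36.8% of genes. The DMSO list alone marked Bcl2 and, only at the most downstream of its 3 listed starts, Bcl2l1. These are 2 of the 3 survival genes and 2 of the 6 members with a DMSO-marked start. Of all genes with a DMSO-marked start, 9.22% lacked an EnPGC-1 interval there, and 3.09% of all genes were marked in the DMSO list alone. With equal numbers of intervals, Mcl1 and Bad were also marked in the DMSO list alone, making 4 members, and the share of all genes was 18.2%. A pair of genes is too few for a share to be read from it. Bcl2l1 and Bbc3 have 3 listed starts each, and Bcl2l11 and Bad have 2, which gives them more chances. In the DMSO list, 48.0% of genes with several starts were marked and 30.8% of genes with 1. For the EnPGC-1 list these shares were 82.3% and 64.4%. The start of Bak1 and the first starts of Bcl2l11 and Bad also lie inside Ggnbp1, Acoxl and Gpr137, so intervals there cannot be assigned to a single gene.

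Several of these states sit close to the 1 kb limit. At Bcl2 the nearest DMSO interval, from 106713692 to 106714138, lay 152 bp downstream of the start, and the nearest EnPGC-1 interval 1105 bp upstream of it. At Bcl2l1 the DMSO interval lay 173 bp from the nearest start and the EnPGC-1 interval 2775 bp away. That start is the most downstream one. The upstream starts of Bcl2l1 had 1712 and 2723 bp to a DMSO interval, and 5003 and 5491 bp to an EnPGC-1 interval. At Bak1 the EnPGC-1 list was the nearer, with 1164 bp to a DMSO interval and 56 bp to an EnPGC-1 interval. Bax had 4513 and 779 bp, and at Bid an EnPGC-1 interval covered the start while the nearest DMSO interval lay 3502 bp away. EnPGC-1 intervals also covered a start of Mcl1, Bcl2l11, Bbc3 and Bad, so 5 of 9 members had a covered start, against 41.2% of genes. The DMSO list covered a start of 1 member, Bbc3, against 15.1% of genes. With a limit of 500 bp, Bax was marked in neither list, and Mcl1 and Bad in the EnPGC-1 list alone. With a limit of 2500 bp, Bcl2 and Bak1 counted as marked in both lists, whereas Bcl2l1 stayed with the DMSO list and Bax and Bid with the EnPGC-1 list. The Bcl2 and Bcl2l1 intervals were narrow, 447 and 344 bp, and both starts were marked in neither list when intervals under 500 bp were left out.

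**Figure D4:**
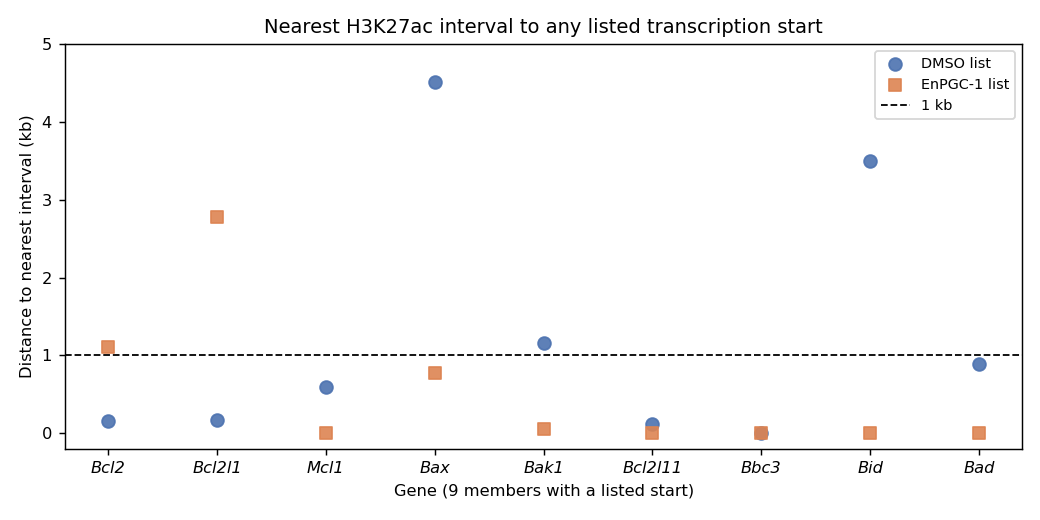
Distance in kb from the nearest interval to any listed start (vertical axis) for 9 genes (horizontal axis), with circles for the DMSO list, squares for the EnPGC-1 list and a dashed line at 1 kb. Bcl2 and Bcl2l1 have the DMSO circle below the line and the EnPGC-1 square above it, Bax, Bak1 and Bid the reverse, and at Bbc3 both points lie at 0.

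Promoter bases are shown for Bcl2, a survival gene marked at its start in the DMSO list alone, and for Bax, an effector gene marked in the EnPGC-1 list alone, because these stand on opposite sides of the comparison. Printed are the bases up to 250 before the listed start that lie in no gene record, from RefSeq on GRCm38.p6, written 5′ to 3′ on the strand of the gene. Capitals mark matches on either strand to a GC box, whose letters are GGGCGG. Bcl2 is given for chr1:106714291-106714540 and Bax for chr7:45466904-45467148, both on the minus strand.
Bcl2: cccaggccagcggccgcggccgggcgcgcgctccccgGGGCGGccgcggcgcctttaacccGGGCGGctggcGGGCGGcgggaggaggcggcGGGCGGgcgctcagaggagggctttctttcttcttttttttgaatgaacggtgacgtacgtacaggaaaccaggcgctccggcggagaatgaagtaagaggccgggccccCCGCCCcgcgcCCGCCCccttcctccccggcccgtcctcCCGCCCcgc
Bax: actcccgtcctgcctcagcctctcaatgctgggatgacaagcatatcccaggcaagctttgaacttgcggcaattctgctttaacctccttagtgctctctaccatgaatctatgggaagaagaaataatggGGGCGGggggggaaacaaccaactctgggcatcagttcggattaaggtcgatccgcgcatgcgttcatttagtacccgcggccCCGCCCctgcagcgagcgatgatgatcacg

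The Bcl2 stretch was rich in GC, at 74.8%, with 7 GC boxes and 36 CpG pairs. The 250 bases before the Bax start had 54% GC, 14 CpG pairs, 2 GC boxes and an E box, with the letters CACGTG, starting at position -9, of which the last letters lie past the printed bases, so that it is not in capitals. The median over 21044 promoters was 55.6% GC with 10 CpG pairs. A GC box was present in 43.0% of all promoters of this length and before 10 of the 15 listed starts of the members. Before the first start of Bcl2l11 there was also a match to a FOXO motif, with the letters GTAAACA, at position -227. FOXO factors are known to switch on Bcl2l11 when survival signals are withdrawn. Of all promoters, 2.64% held this match and 6.70% an E box. Among the members Bbc3 held both as well, but before different starts. The box with the letters CCAAT was found in 35.6% of all promoters and at 4 member starts, those of Bcl2l11, Bbc3 and Bad. The strings TATAAA (11.7% of promoters) and, for AP-1, TGACTCA (4.09%) were found at 0 member starts. No base of the Bcl2 or Bax stretch was covered in either list, so the intervals near these starts lay outside the printed bases. A match is a string of letters in this window and shows no binding.

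Averaged over the 9 members with a listed start, coverage was highest just inside the transcribed region in both lists, as it was over all genes. In the first 1 kb downstream of the most upstream start, the members' mean was 18.5% with DMSO and 43.8% with EnPGC-1, against 10.6% and 33.1% over all genes. That bin held DMSO bases in 4 members and EnPGC-1 bases in 7. In the next 1 kb the EnPGC-1 mean was 34.7% for the members and 15.5% for all genes. Upstream, between 1 and 2 kb before the start, it was 28.1% and 9.91%. In the 1 kb directly before the start the EnPGC-1 means were closer, 23.66% and 20.01%. From 3000 to 4000 bp downstream the members lay below all genes, at 9.22% and 13.4%. The same held from 7000 to 8000 bp, at 9.68% and 13.9%. In the remaining bins within 10 kb the EnPGC-1 mean was higher for the members. With 9 genes these means move with single intervals, as the uneven member curves show.

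**Figure D5:**
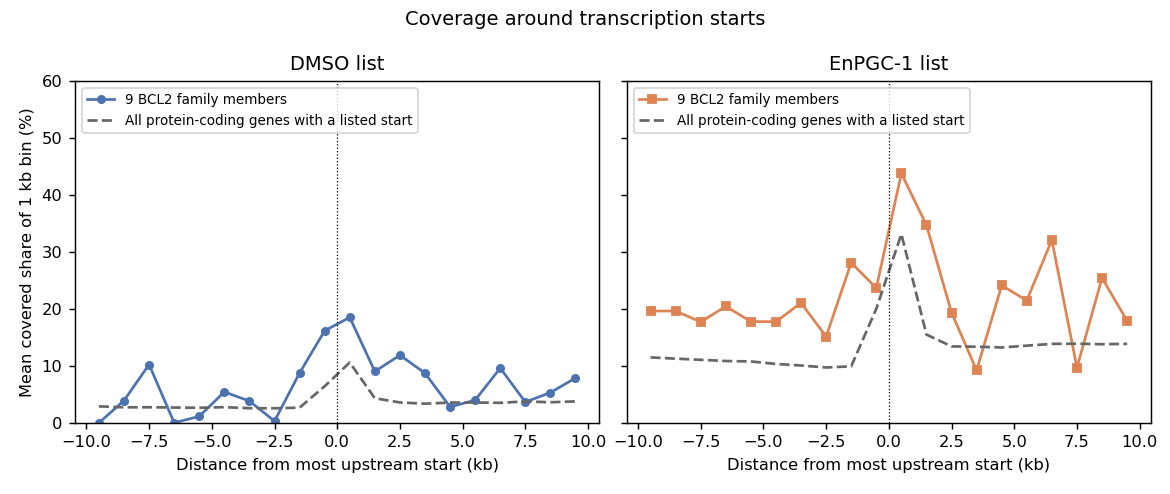
Mean covered share of 1 kb bins in percent (vertical axis) by distance in kb from the most upstream start (horizontal axis), for 9 members (solid line with points) and all protein-coding genes with a listed start (dashed), with the DMSO list on the left and the EnPGC-1 list on the right. Both member curves peak in the first bin after the start, at 18.5% and 43.8%.

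Of the 69 DMSO intervals in the windows, 46 had 1 bp or more in common with EnPGC-1 intervals (66.7%, exact Clopper-Pearson 95% interval 54.3 to 77.6), against 73.7% of the whole DMSO list. In the other direction, 49 of 178 were shared (27.5%, 21.1 to 34.7), against 23.1% of the whole EnPGC-1 list. These 95% intervals cover counting error only and are no test against the whole lists. They take the listed stretches as independent, although those of 1 window lie together. The windows differed in this. At Bax, Bak1 and Pmaip1 every DMSO interval, 3, 4 and 1, was shared, and at Bad 16 of 18 were. At Bcl2 only 2 of 5 were shared, at Bcl2l11 2 of 8, at Bcl2l1 5 of 9 and at Bbc3 6 of 11. Counted in bases, 26.7% of DMSO bases at Bcl2l11, 34.1% at Bcl2l1 and 34.5% at Bcl2 also lay in EnPGC-1 intervals, while 87.6% did at Bax, 76.8% at Bak1 and 73.4% at Bad.

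Median interval width in the windows was 585.5 bp for EnPGC-1 and 443 bp for DMSO, and 28.7% and 4.35% of the intervals held several summits. The whole lists had medians of 499 and 431 bp, and 20.7% and 3.42% with several summits. Scores were ordinary for their lists: 47.8% of the EnPGC-1 intervals and 58.0% of the DMSO intervals reached the median score of their own list, which 50.7% and 60.6% of the whole lists did. Only 1 EnPGC-1 interval, the one in Dhdh near Bax, and 2 DMSO intervals, in Sae1 near Bbc3 and in Plcb3 near Bad, were in the top 1% of their list, and none of these 3 lay in a member's own body.

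Other genes of the cell death pathway showed the same general excess. Of 65 such genes in 4 lists, 63 were covered more with EnPGC-1 and 1 less, against 93% and 1.51% of all protein-coding genes. Their median ratio was 4.04, against 3.71 over all genes. Of the 54 with a listed start, 16 were marked in both lists, 24 in the EnPGC-1 list alone, 4 in the DMSO list alone and 10 in neither. In the same order, the shares over all genes with a listed start were 30.5%, 36.8%, 3.09% and 29.6%. Among 16 other BCL2 family genes the median covered share was 3.90% with DMSO and 11.9% with EnPGC-1. Bcl2l12 had 10.5% and 38.9%, the BH3-only gene Bik had 16.2% and 40.0%, and Bcl2a1b, one of several near-identical copies of a survival gene, had 0 intervals in both lists. How reads from such copies were placed is unstated in the sources.

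Among 17 genes of the apoptosome and the caspases, medians were 2.75% and 9.86%. Dffb, which encodes the nuclease that cuts DNA in dying cells, had 10.4% and 48.2%, and the mitochondrial protease gene Htra2 11.8% and 40.2%. Cycs, the gene of cytochrome c, had 1 interval in each list and was the 1 gene with slightly fewer EnPGC-1 bases, at 0.70% and 0.679%. Among 14 death receptor genes, medians were 3.13% and 11.6%. The TNF receptor gene Tnfrsf1a had 9.01% and 47.0% and the adaptor gene Traf2 6.28% and 36.3%, whereas the death receptor gene Fas had 0.95% and 1.79%. Among 18 upstream regulators, medians were 5.74% and 22.6%. Trp73, a relative of p53, had 9.82% and 44.2%, the survival kinase gene Akt1 23.3% and 57.4%, and Usp9x, whose product removes ubiquitin from MCL1, 0.230% and 2.05%. Among the genes nearest to the family's median pair of covered shares were Casp9, the initiator caspase gene, with 4.60% and 22.8%, and Stat5b with 5.93% and 21.2%. That likeness rests on 2 values per gene, 1 from each list.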

How the data were processed

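H3K27ac ChIP, IgG ChIP and input libraries were sequenced. Samples were grouped by the treatment and antibody in the labels, and nothing says that replicates came from separate animals. Per the submitters' processing notes, MACS2 (2.2.2.20160309) and ChIPseeker (11.16.1) were used, as were Picard (0.118), Bowtie (1.1.2) and Trimmomatic (0.38), on build mm10. The sources used here state no parameters, control or pooling of replicates. The authors deposited 1 peak list per treatment, with a score taken to be −log10 q-values because the lowest scores, 1.31 in both lists, lie just above 1.30, the value for 0.05. Scores were used within 1 list only. IgG and input samples were not analysed here.

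Entries repeating 1 interval were combined with their highest score, which left 81522 of 84538 DMSO and 253423 of 329623 EnPGC-1 entries. Gene positions came from a RefSeq table of GRCm38.p6, which shares coordinates with mm10, and starts and strands from a RefSeq promoter table that matched 17273 of 21627 protein-coding genes and 9 of 10 members. Pmaip1 is not in it. Coordinates are 1-based. Covered bases and interval numbers were counted in each window, and sharing required 1 bp of overlap. No test was made. Members and gene lists were chosen with earlier results of these data known. Outside the members, the rule named, per list, the 2 genes with the largest and the 1 with the most negative difference in covered share, and the 3 nearest the members' median pair, of which 1 is not reported here. Alternatives were a median score filter, equal numbers of intervals, a 500 bp width limit, joining within 1000 bp, start limits of 500 and 2500 bp, other windows, 50% overlap and leaving out other genes' bases. Leaving out each window in turn was added after seeing the data. Calculations (Python 3.11.15, numpy 2.4.6, pandas 2.3.3) differed from base-by-base counts in 0 of 200 simulated lists.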

Additional observations from a re-analysis of the deposited data

How the results depend on the processing

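No paired analysis was possible because each treatment has 1 list and no result comes from a test. The ratio of covered bases over all members, 3.93, stayed above 1 in each setting run. It was 1.75 when both lists had equal numbers, 3.69 for scores at or above each list's median, 5.53 with intervals of 500 bp or more and 3.95 after joining within 1000 bp. It was 3.24 for gene bodies alone, 3.36 with 5 kb on each side and 3.42 with 50 kb. Outside other genes, which leaves out the Bak1 body, it was 3.76. Leaving out 1 window at a time gave 3.55 (without Bak1) to 4.55 (without Bad). The ratio of interval numbers, 2.58, turned to 0.855 with equal numbers. It was 2.13 at or above the median score, 3.76 at 500 bp or more, 2.07 after joining, 2.28 for gene bodies, 2.21 with 5 kb and 2.35 with 50 kb. Among single genes, the ratio at Bbc3 turned to 0.704 with equal numbers, and no other gene's ratio went below 1 in any setting that gave one. No ratio could be given where DMSO covered 0 bases: Mcl1 and Bax with the score filter, Bcl2, Mcl1 and Pmaip1 at 500 bp or more, and the bodies of Bax, Bak1 and Pmaip1. The cause of the other shifts was not tested. Members with a DMSO-marked start fell from 6 to 3 with the score filter and with the 500 bp filter. The share over all genes with these filters is not given, so a general fall cannot be told apart. The shared percentage of DMSO intervals was 42.5% with the score filter and 33.3% with equal numbers. That of EnPGC-1 intervals was 40.7% with equal numbers and 19.3% at 500 bp or more. Shared percentages of the whole lists at these settings are not given. Shifts in the windows therefore cannot be told from shifts across the lists. By construction, equal numbers takes away intervals from EnPGC-1 alone, those with a score of 4.21 or less, ties in part. Unknown depth limits each count: an interval not listed in 1 treatment may lie just under that list's threshold.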
